A study of Mus musculus with 21 samples.

Results

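The genes described here are 33 mouse targets of the transcription factor p53, listed by symbol, with earlier results of these data known, and found by Ensembl identifier in a count table of 48440 genes. All 33 were matched, and all 33 were among the 21237 genes that passed the filter on low counts, so no member was lost before testing. The members on which most results turn lie, in GRCm38, with Ccng1 (ENSMUSG00000020326) at chr11:40748552-40755311, Eda2r (ENSMUSG00000034457) at chrX:97333840-97377216, Cdkn1a (ENSMUSG00000023067) at chr17:29090976-29100727 and Mdm2 (ENSMUSG00000020184) at chr10:117688875-117710758. p53, the product of Trp53, is held at a low level by the ubiquitin ligase Mdm2, is stabilised by DNA damage and other stresses, and then raises genes for cell cycle arrest, cell death, DNA repair and antioxidant defence, Mdm2 among them, which closes a feedback loop. The arrest gene Cdkn1a encodes p21, an inhibitor of cyclin-dependent kinases through which many mitosis genes are lowered. SV40 large T antigen, the oncoprotein of the mouse tumour model from which 2 of the cell lines were made, is known to bind p53.

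RNA was sequenced after ribosomal RNA removal in 3 mouse cell lines in which the level of Esrp2-as, a long noncoding RNA antisense to the splicing regulator gene Esrp2, was targeted or raised. M6 and M27H4 came from mammary tumours of C3(1)SV40 TAg mice, whereas the line 3T3-L1 consists of preadipocytes, cells that can become fat cells. For M6, LNA gapmers against Esrp2-as were used in 2 replicates, against 2 that the labels call empty vector controls, so the control treatment differs in kind from the gapmer as labelled. Esrp2-as was overexpressed in 3 M27H4 and 2 3T3-L1 replicates, against 3 and 2 empty vector controls. All 6 groups were grown in the same medium, and the titles call the replicates biological without describing separate cultures, so every p-value measures only the spread between these samples.

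The 14 replicates held 34892461 to 328493417 counts, after technical replicates from 21 columns had been summed. Esrp2-as itself was at 0.527 to 0.851 CPM (counts scaled to a common effective library size) in M6 knockdown and 2.42 to 2.96 in M6 control, a difference that edgeR's quasi-likelihood test did not call (log2 fold change -1.92, adjusted p = 0.363). It rose to between 15.9 and 65.9 CPM in M27H4 overexpression from 0.731 to 1.25 in control (adjusted p = 0.00152), and to between 35.5 and 45.8 CPM in 3T3-L1 overexpression from 0.2503 to 0.355 (adjusted p = 0.00258). Its exons overlap Esrp2 on the other strand, so its level is uncertain where reads from both could be mixed. The epithelial markers were all 8 at 1 CPM or more in M6 control, with a summed level of 4294 to 6247 CPM, against 164 to 290 in M27H4 control and 23.0 to 29.3 in 3T3-L1 control. The fibroblast markers summed to 3890 to 4672 CPM in 3T3-L1 control, 877 to 1053 in M27H4 control and 40.5 to 53.6 in M6 control. The column names carry a code with several lines under 1 code, and levels moved with it. The collagen gene Col1a2 was at 0.888 to 1.07 CPM in the 2 M27H4 columns under a code that no 3T3-L1 column carried and at 23.7 to 43.9 CPM in the 6 under a shared code, against 2929 to 3740 CPM in 3T3-L1. Those 2 M27H4 columns were replicate 1 of overexpression and of control, so code and replicate cannot be told apart there. In M6, Col1a2 was at 0 to 0.247 CPM in the 4 columns under the unshared code and 14.9 to 24.1 in the 3 under shared codes. Replicate 2 of M6 knockdown and of M6 control had columns under both kinds of code, so there the level differed with the code within a replicate. Values from unshared codes are given below for the members that differed most. The origin of this pattern was not tested.

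Near the starts of the members, matches to the p53 binding consensus were more frequent than among mouse promoters at large. The members were listed as p53 targets, so this comparison is not independent of how they were chosen. RefSeq windows of 250 bases before to 50 bases after a start (GRCm38.p6) were found for 25 of the 33 members, 35 windows in all. Zmat3, Trp53inp1, Pmaip1, Tnfrsf10b, Rrm2b, Xpc, Ddb2 and Perp had none. A p53 half-site consensus of 10 bases, searched on both strands, lay in 12 of the 35 windows, against 8.36% of all 32851 windows. Overlapping windows of a gene can share a site, as those of Aen did, and by gene 11 of the 25 members held a half-site. A full element, 2 half-sites side by side with at most 2 of 20 letters off, lay in 5 of the 35 windows (Cdkn1a, Ccng1, Rps27l, Gtse1 and Ckap2), against 0.326% of all windows. The cell cycle element TTTGAA was in 6 member windows and 17.9% of all. TTCGAA was in 2 member windows, which share a single site of Psrc1, and in 1.56% of all. A match describes letters only and shows no binding.

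Of these elements 4 are shown, because Cdkn1a and Ccng1 had large fold changes after the knockdown and Rps27l and Gtse1 did not. Capitals mark letters that fit the consensus, and each is read on the strand of its gene.
Cdkn1a, chr17:29090928-29090947, plus strand, 51 to 32 bases before the start: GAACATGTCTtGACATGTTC
Ccng1, chr11:40755462-40755481, minus strand, 195 to 176 bases before the start: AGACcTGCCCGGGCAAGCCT
Rps27l, chr9:66946296-66946315, plus strand, 117 to 98 bases before the start: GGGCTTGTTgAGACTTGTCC
Gtse1, chr15:85859945-85859964, plus strand, reaching 19 bases past the start: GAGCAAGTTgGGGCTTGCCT
In each of these 4 elements 1 letter was off the consensus. Distances are from the RefSeq start of the window searched, and a gene can have several such starts. For Rps27l and Gtse1 the element lies inside the annotated gene, which begins at chr9:66946086 and chr15:85859745. The stretches before an earlier RefSeq start of each, chr9:66945836-66946085 and chr15:85859457-85859706, held 0 half-sites and 0 full elements.

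The promoters of 4 members follow, up to 250 bases before the RefSeq start and cut where an annotated exon begins. Cdkn1a and Ccng1 are shown for their full elements, Eda2r because it was called beside Ccng1 after the knockdown, and Mdm2 because it had the largest negative difference of the tumour lines from 3T3-L1. Here capitals mark half-sites and full elements.
Cdkn1a, chr17:29090729-29090975, plus strand: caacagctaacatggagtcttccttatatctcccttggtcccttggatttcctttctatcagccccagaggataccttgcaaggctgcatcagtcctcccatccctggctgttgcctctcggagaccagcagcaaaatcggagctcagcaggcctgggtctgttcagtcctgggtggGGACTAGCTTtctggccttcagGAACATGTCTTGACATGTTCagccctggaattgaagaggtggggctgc
Ccng1, chr11:40755312-40755536, minus strand: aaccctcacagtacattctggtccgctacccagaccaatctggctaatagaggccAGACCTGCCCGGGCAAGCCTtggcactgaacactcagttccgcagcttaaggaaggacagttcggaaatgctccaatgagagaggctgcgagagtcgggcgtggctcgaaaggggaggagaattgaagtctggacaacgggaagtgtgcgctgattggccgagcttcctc
Eda2r, chrX:97377217-97377459, minus strand: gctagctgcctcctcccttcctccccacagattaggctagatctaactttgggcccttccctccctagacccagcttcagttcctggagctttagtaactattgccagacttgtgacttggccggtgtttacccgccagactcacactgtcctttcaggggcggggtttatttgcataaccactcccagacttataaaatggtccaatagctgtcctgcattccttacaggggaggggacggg
Mdm2, chr10:117710759-117711008, minus strand: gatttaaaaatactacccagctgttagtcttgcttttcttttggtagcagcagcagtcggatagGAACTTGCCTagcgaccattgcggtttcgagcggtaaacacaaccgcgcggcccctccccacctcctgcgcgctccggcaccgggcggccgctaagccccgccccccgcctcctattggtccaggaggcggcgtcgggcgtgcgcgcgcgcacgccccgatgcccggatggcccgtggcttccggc
Cdkn1a held 2 half-sites in the stretch shown, 1 of them inside the full element, Mdm2 held 1, and Eda2r had no match in these letters.

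In M6, the question was which p53 targets moved when Esrp2-as was knocked down. The member levels leaned upwards: 27 of 33 had a positive log2 fold change, where 43.9% of all genes did, and the median member was 0.53 higher on the log2 scale against -0.03 for all genes tested. edgeR's quasi-likelihood test, with p-values adjusted over all genes, called 2 members higher, Ccng1 and Eda2r, and none lower, where 0.122% of all genes were called higher and 0.0141% lower. At an unadjusted p under 0.05, 14 members were higher and none lower, against 3.29% of all genes higher and 2.98% lower. Both knockdown replicates lay above both controls for 19 members, and below both for 3, where 12.6% and 13.8% of all genes did so. By role the median log2 fold change was 1.01 for arrest and feedback, 0.59 for cell death, 0.49 for metabolism and stress, 0.40 for mitosis-linked genes and 0.29 for repair. Without knockdown replicate 2 the median over the members was 0.28. In bulk RNA such as this, fewer cells with a transcript and less of it per cell cannot be told apart. The summed epithelial markers were at 3862 to 5656 CPM after knockdown against 4294 to 6247 in control and the fibroblast markers at 28.2 to 44.2 against 40.5 to 53.6, and their part in the member changes was not tested.

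**Figure D1:**
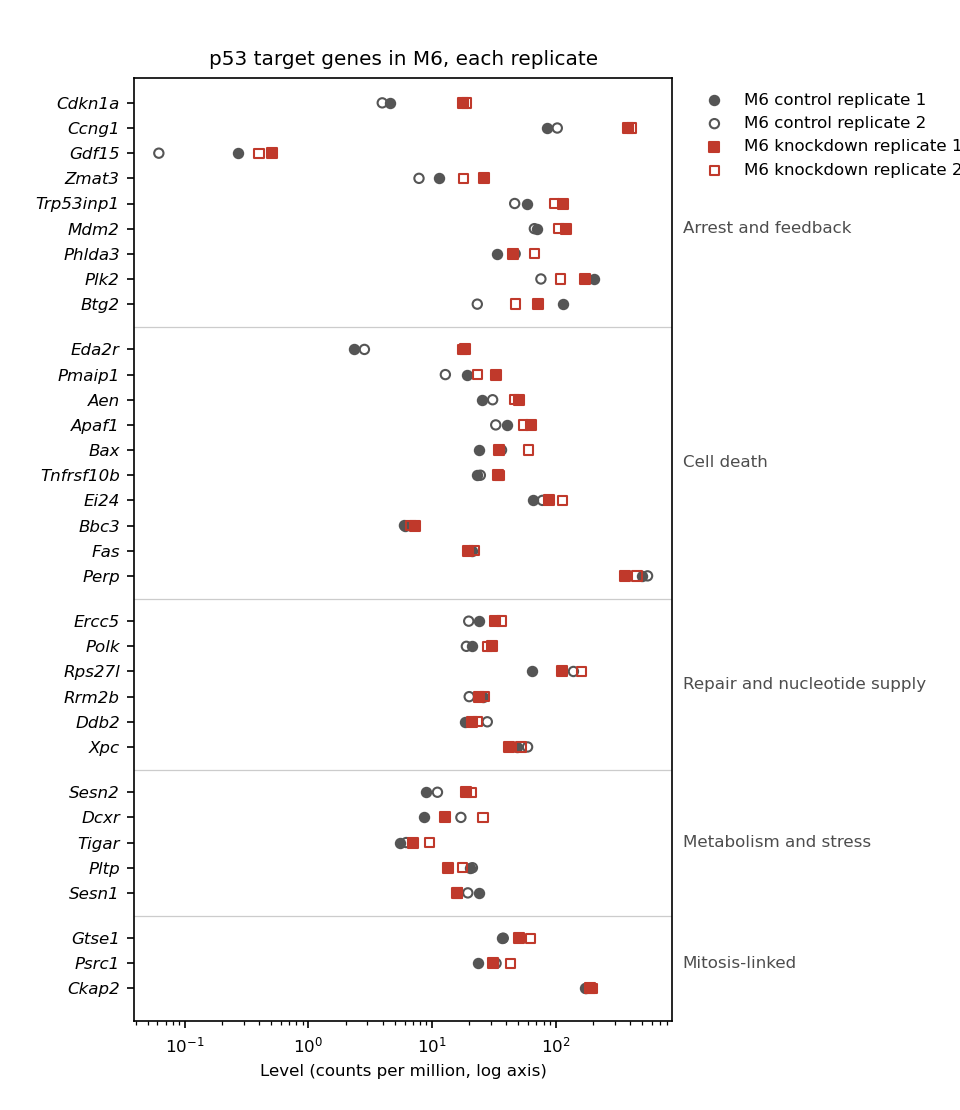
Levels of the 33 p53 target genes in M6, in CPM on a log axis, with circles for the 2 controls and squares for the 2 knockdown replicates, grouped by role. Eda2r, Ccng1 and Cdkn1a show the widest gap between the groups, while Btg2 and Plk2 differ more between the 2 controls than between the groups.

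Among the arrest and feedback genes, Ccng1 encodes cyclin G1, which recruits a phosphatase to Mdm2. It was at 386 and 413 CPM in the knockdown replicates and 85.8 and 103 CPM in the controls. The groups were far apart, and the difference of 2.08 ± 0.21 (log2 fold change ± SE) was called (edgeR adjusted p = 0.00144). The knockdown level of Ccng1 approached the 464 to 513 CPM of the 3T3-L1 replicates. Cdkn1a was at 17.7 and 18.95 CPM against 4.60 and 3.96 in the controls. Its fold change was as large as that of Ccng1, 2.10 ± 0.44, but with a wider error it was not called (edgeR adjusted p = 0.117). DESeq2 (adjusted p = 0.000261), limma voom (adjusted p = 0.0121) and edgeR with no filter on low counts (adjusted p = 0.0301) did call it.

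Zmat3, an RNA-binding protein gene that acts in p53-driven tumour suppression, was at 26.5 and 18.04 CPM after knockdown and 11.4 and 7.85 in control, with no overlap (1.21 ± 0.25, edgeR adjusted p = 0.106). Trp53inp1, a stress-induced partner of p53, was at 114 and 97.7 against 58.3 and 46.7 CPM (1.01 ± 0.22, edgeR adjusted p = 0.161). Mdm2 was at 121 and 107 against 71.1 and 67.3 CPM (0.72 ± 0.26, edgeR adjusted p = 0.604). All 3 were higher in both knockdown replicates and reached an unadjusted p under 0.05 without being called. With the replicate number as a block, edgeR called Zmat3 (adjusted p = 0.00820) and Trp53inp1 (adjusted p = 0.00446), as did DESeq2 (adjusted p = 0.00734 and 0.0276). The Mdm2 level depended on the column code. Scaled column by column, under the code that only M6 columns carried, the knockdown columns held 130 and 55.5 CPM and the control columns 77.0 and 31.8. Under codes shared with other lines the knockdown column held 136 CPM and the control columns 47.8 and 92.0, so that single columns of 1 control replicate differed more than the summed replicates did.

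The other arrest genes did not pass even the unadjusted threshold. Phlda3, which restrains the kinase Akt, was at 45.6 and 67.6 against 33.5 and 47.1 CPM, and the ranges overlapped. The secreted stress factor gene Gdf15 was below 1 CPM in M6, at 0.506 and 0.398 against 0.269 and 0.0617 CPM. Plk2, a polo-like kinase gene, was at 173 and 109 CPM after knockdown and 205 and 76.1 in control. The antiproliferative gene Btg2 was at 71.8 and 47.3 against 116 and 23.3 CPM, and its interval of -2.49 to 2.05 on the log2 scale leaves its change undetermined. For Btg2 and Plk2 the replicate numbered 1 was the higher in both groups.

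Among the cell death genes, Eda2r, which encodes the receptor for ectodysplasin A2, had the largest fold change of all members. Its level was 18.4 and 17.6 CPM after knockdown and 2.36 and 2.84 in control. The difference of 2.78 ± 0.34 on the log2 scale, a 6.88-fold rise, was called (edgeR adjusted p = 0.00479), although the knockdown level stayed well below the 75.5 to 90.7 CPM of 3T3-L1. The call was lost without control replicate 1 (adjusted p = 0.0909). When the fit held the 2 M6 groups alone, with 2 residual degrees of freedom in place of 8, neither Eda2r (adjusted p = 0.261) nor Ccng1 (adjusted p = 0.266) was called, nor was any other gene of the table.

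Apaf1, the scaffold of the apoptosome, was at 62.8 and 54.7 CPM against 40.1 and 32.8 (0.69 ± 0.18, edgeR adjusted p = 0.259). The death receptor gene Tnfrsf10b was at 34.1 and 35.02 against 23.1 and 24.6 CPM (0.53 ± 0.19, edgeR adjusted p = 0.574). Ei24, a gene of the endoplasmic reticulum first found as an etoposide-induced transcript, was at 88.04 and 114 against 65.2 and 78.3 CPM (0.49 ± 0.23, edgeR adjusted p = 0.797). These 3 were higher in both knockdown replicates with differences of less than 1 log2 unit, and Apaf1 was called with the replicate block (edgeR adjusted p = 0.0375). The Apaf1 level varied with the column code. Under the code that only M6 columns carried, the knockdown columns held 67.4 and 44.9 CPM of the column total and the control columns 43.4 and 43.6. Under codes shared with other lines the knockdown column held 57.9 CPM and the control columns 27.7 and 27.3. Bax, the pore-forming effector of apoptosis, was at 34.7 and 60.2 against 23.95 and 36.5 CPM (0.65 ± 0.29, edgeR adjusted p = 0.758). Its ranges overlapped, since replicate 2 was the higher in each group.

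Pmaip1 (Noxa), which like Bbc3 (Puma) encodes a BH3-only activator of apoptosis, was at 33.1 and 23.4 CPM after knockdown against 19.2 and 12.8, with an unadjusted p of 0.132 from edgeR. Bbc3 was at 7.28 and 6.77 against 6.05 and 5.99 CPM, a difference of 0.22 on the log2 scale. The apoptosis-enhancing nuclease gene Aen was at 50.8 and 46.5 against 25.2 and 30.9 CPM. All 3 had ranges apart in the upward direction, none with an unadjusted p under 0.05. For Aen the single columns of replicate 2 overlapped, at 61.8 and 32.3 CPM of the column total in knockdown and 20.4, 25.2 and 36.6 in control. The death receptor gene Fas overlapped between the groups, at 19.7 and 21.8 against 21.01 and 19.7 CPM. Perp, a desmosome-associated gene of epithelia, was at 364 and 455 CPM after knockdown and 499.5 and 555 in control, so both knockdown replicates were lower, with a log2 fold change of -0.37 (unadjusted p = 0.315).

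Of the 6 repair and nucleotide supply genes, 2 reached an unadjusted p under 0.05 and none was called. Ercc5, the endonuclease XPG of nucleotide excision repair, was at 32.6 and 36.6 CPM against 24.2 and 19.8 (0.65 ± 0.18, edgeR adjusted p = 0.315). Polk, a translesion DNA polymerase gene, was at 30.9 and 28.1 against 21.2 and 18.98 CPM (0.55 ± 0.22, edgeR adjusted p = 0.657). Both were higher in both knockdown replicates, and DESeq2 called Ercc5 (adjusted p = 0.0287). The damage sensor genes Xpc (42.2 and 52.6 against 48.7 and 59.4 CPM) and Ddb2 (21.3 and 23.2 against 18.5 and 28.02 CPM) had overlapping ranges, as had the ribonucleotide reductase subunit gene Rrm2b (24.03 and 26.7 against 26.04 and 20 CPM). Rps27l, which resembles Rps27 closely enough that reads may be split between them, was at 113 and 162 against 64.01 and 139 CPM, and the 2 controls differed more than the groups did.

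The sestrins, which restrain mTORC1 and limit oxidative stress, leaned in opposite directions. Sesn2 was at 18.7 and 20.9 CPM after knockdown and 8.88 and 11.1 in control (0.99 ± 0.24, edgeR adjusted p = 0.216). Sesn1 was at 15.8 and 15.98 against 23.9 and 19.5 CPM, lower in both knockdown replicates (-0.45 ± 0.21, unadjusted p = 0.0577). Neither was called, and the difference between the 2 genes was not tested. Sesn2 was called with the replicate block (edgeR adjusted p = 0.0149) and with DESeq2 (adjusted p = 0.00552). Tigar, a regulator of glycolysis, was at 6.98 and 9.49 against 5.53 and 6.19 CPM, the carbonyl reductase gene Dcxr at 12.8 and 25.9 against 8.63 and 17.1, and the phospholipid transfer protein gene Pltp at 13.4 and 17.7 against 20.2 and 21.2. Of these, Tigar was higher and Pltp lower in both knockdown replicates, and Dcxr overlapped.

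The 3 mitosis-linked members all had positive log2 fold changes. Gtse1, whose product binds p53 in G2, was at 50.8 and 62.6 CPM against 36.98 and 37.7 (0.60 ± 0.26, edgeR adjusted p = 0.723). Psrc1 was at 31.3 and 43.3 against 23.5 and 32.99 and the spindle gene Ckap2 at 189 and 198 against 176 and 175 CPM, both without an unadjusted p under 0.05. Of 16 cell cycle genes known to be lowered through p21 and the DREAM complex, 14 had a negative log2 fold change (median -0.13). Of all 21237 genes tested, 11346 were negative, with a median of -0.03. None of the 16 passed the adjusted or the unadjusted threshold, and a link to Cdkn1a was not tested. The smallest p-values there were those of the cyclin gene Ccnb2, at 139 and 159.9 against 158 and 218 CPM (-0.33, unadjusted p = 0.156), and of the centromere histone gene Cenpa, at 92.2 and 105 against 104 and 142 (-0.32, unadjusted p = 0.232).

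Trp53 itself overlapped between the M6 groups, at 29.9 and 29.5 CPM after knockdown and 28.5 and 34.02 in control. Of 22 genes for p53 and its regulators 21 were tested, 6 of them positive and 15 negative, where 43.9% of all genes were positive. None was called or reached an unadjusted p under 0.05 (edgeR). The smallest p-values were those of Ppp1r13b, which encodes the p53 cofactor ASPP1 (-0.46, unadjusted p = 0.168), and Ppp1r13l, which encodes the inhibitor iASPP (-0.66, unadjusted p = 0.184). Among 32 further p53 targets, 18 were positive and 14 negative with a median of 0.05. At an unadjusted p under 0.05 from edgeR, 7 were higher and 2 lower, where 3.29% and 2.98% of all genes were. Of the 32, 1 was called, Ephx1, a microsomal epoxide hydrolase gene, at 73.5 and 94.98 CPM against 30.7 and 38.2 (1.29 ± 0.20, edgeR adjusted p = 0.0274). That call was lost without control replicate 1 (adjusted p = 0.157), knockdown replicate 1 (adjusted p = 0.0591) or knockdown replicate 2 (adjusted p = 0.129), and with only the M6 groups in the fit (adjusted p = 0.391).

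The transcript table placed the M6 differences on named transcripts, in CPM of that table. Nearly all Ccng1 counts were on Ccng1-201, at 414 and 396 in knockdown and 92.9 and 96.8 in control. Cdkn1a had 2 starts in use: Cdkn1a-201 (start at base 29093769 of chromosome 17) was at 13.5 and 13 against 4.71 and 3.12, and Cdkn1a-202 (start at base 29090979, just downstream of the full element) was at 5.18 and 4.86 against 0 and 0.457. Both transcripts were higher in both knockdown replicates, and Cdkn1a-202 was at or near 0 in the controls. Eda2r-201 was at 13.99 and 11.6 against 2.56 and 2.09, and Eda2r-203, annotated as a retained intron, was at 5.09 and 4.44 against 0 and 0.557. In 3T3-L1 Cdkn1a-202 was at 3 and 3.13 with overexpression and 1.83 and 2.25 in control, and Eda2r-203 at 29.8 and 20.8 against 35.2 and 32.4, apart in opposite directions. The split between transcripts is an estimate from reads that often fit several of them, and no test was made on it.

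**Figure D2:**
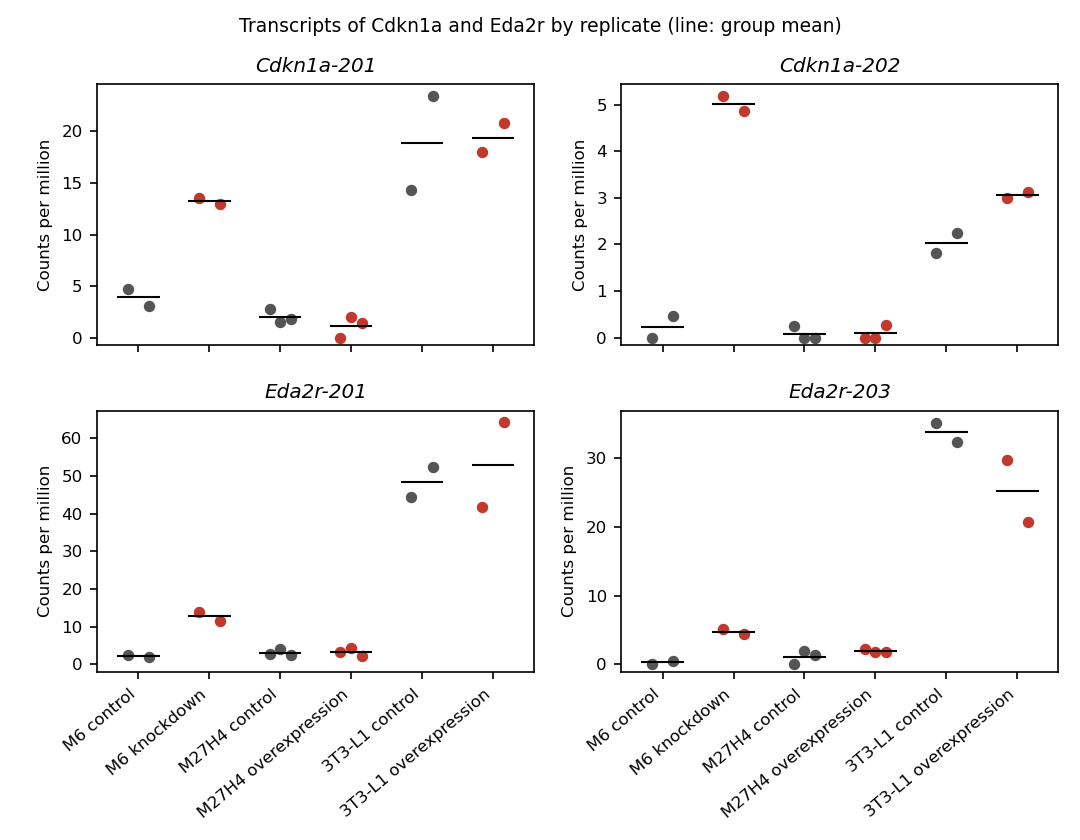
CPM of 4 transcripts in each replicate of the 6 groups, with controls in grey, treated replicates in red and a line at each group's mean. The M6 knockdown points lie above the M6 control points in all 4 panels, and in 3T3-L1 the groups overlap for Cdkn1a-201 and Eda2r-201 and are apart for Cdkn1a-202 and Eda2r-203.

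Overexpression of Esrp2-as in M27H4 left every member within 0.57 log2 units of its control. No member was called by edgeR, none reached an unadjusted p under 0.05, and the median log2 fold change was -0.05 with 12 of 33 positive, where 43.9% of all genes were. Over all genes 0.00942% were called, 0.00471% in each direction, and 1.14% were higher and 0.546% lower at an unadjusted p under 0.05. Ccng1 was at 120, 111 and 126 CPM in the overexpression replicates and 89.7, 137 and 120.5 in control, and Eda2r was at 5.59, 6.23 and 4.44 against 2.71, 6.60 and 4.27. Both overlapped completely. Cdkn1a was at 0.639, 2.16 and 1.93 CPM against 3.07, 1.84 and 2.06, a difference of -0.51 with an interval of -1.27 to 0.24 on the log2 scale. The smallest p-value among the members was that of Bbc3, at 6.17, 6.84 and 7.05 CPM against 8.17, 8.51 and 8.17, lower in all 3 overexpression replicates (unadjusted p = 0.0807). Bbc3, Pltp and Gtse1 had ranges apart downwards and no member upwards, where 2.42% and 2.68% of all genes did so.

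In 3T3-L1 overexpression the members stayed within 0.49 log2 units of control. Again edgeR called none and none reached an unadjusted p under 0.05, with a median of 0.00 and 17 of 33 positive, where 49.6% of all genes were positive, 0.00471% were called, all higher, and 0.461% were higher and 0.485% lower at an unadjusted p under 0.05. Ccng1 was at 493 and 464 CPM against 513 and 469, Cdkn1a at 20.9 and 24.5 against 16.7 and 25.3, and Eda2r at 75.5 and 90.7 against 85.4 and 85.8. All 3 overlapped between the groups. The replicates numbered 1 and 2 differed from each other as much as the groups for several members: Gtse1 was at 48.3 and 30.6 CPM in overexpression and 45.4 and 27.98 in control, and Ckap2 at 126 and 90.04 against 132 and 92.7. Gdf15, Apaf1, Sesn2 and Tigar had ranges apart upwards and no member downwards, where 12.1% and 11.2% of all genes did so. Gdf15 was at 4.39 and 3.43 CPM against 2.82 and 2.94.

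No gene of the pathway lists was called in either overexpression comparison. Trp53 was at 18.8, 23.5 and 27.1 CPM in M27H4 overexpression and 34.4, 31.8 and 23.9 in control (-0.38, unadjusted p = 0.0694), and Ppp1r13l had the next smallest p among the regulators (-0.72, unadjusted p = 0.0896). In 3T3-L1 the regulators with the smallest p were the checkpoint kinase gene Chek1 (-0.44, unadjusted p = 0.157) and the ubiquitin ligase gene Rchy1 (-0.35, unadjusted p = 0.175). Of the 32 further targets, 1 reached an unadjusted p under 0.05 in M27H4, the sulfatase gene Sulf2 (-0.42, unadjusted p = 0.0494), followed by Rap2b (-0.26, unadjusted p = 0.32), and none in 3T3-L1, where Steap3 (0.34, unadjusted p = 0.202) and Pml (0.29, unadjusted p = 0.254) came first. None of the 16 DREAM-linked genes did in either line, with Ccna2 (0.18, unadjusted p = 0.403) and Plk1 (-0.16, unadjusted p = 0.46) first in M27H4 and Aurka (-0.21, unadjusted p = 0.449) and E2f1 (0.15, unadjusted p = 0.455) in 3T3-L1.

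**Figure D3:**
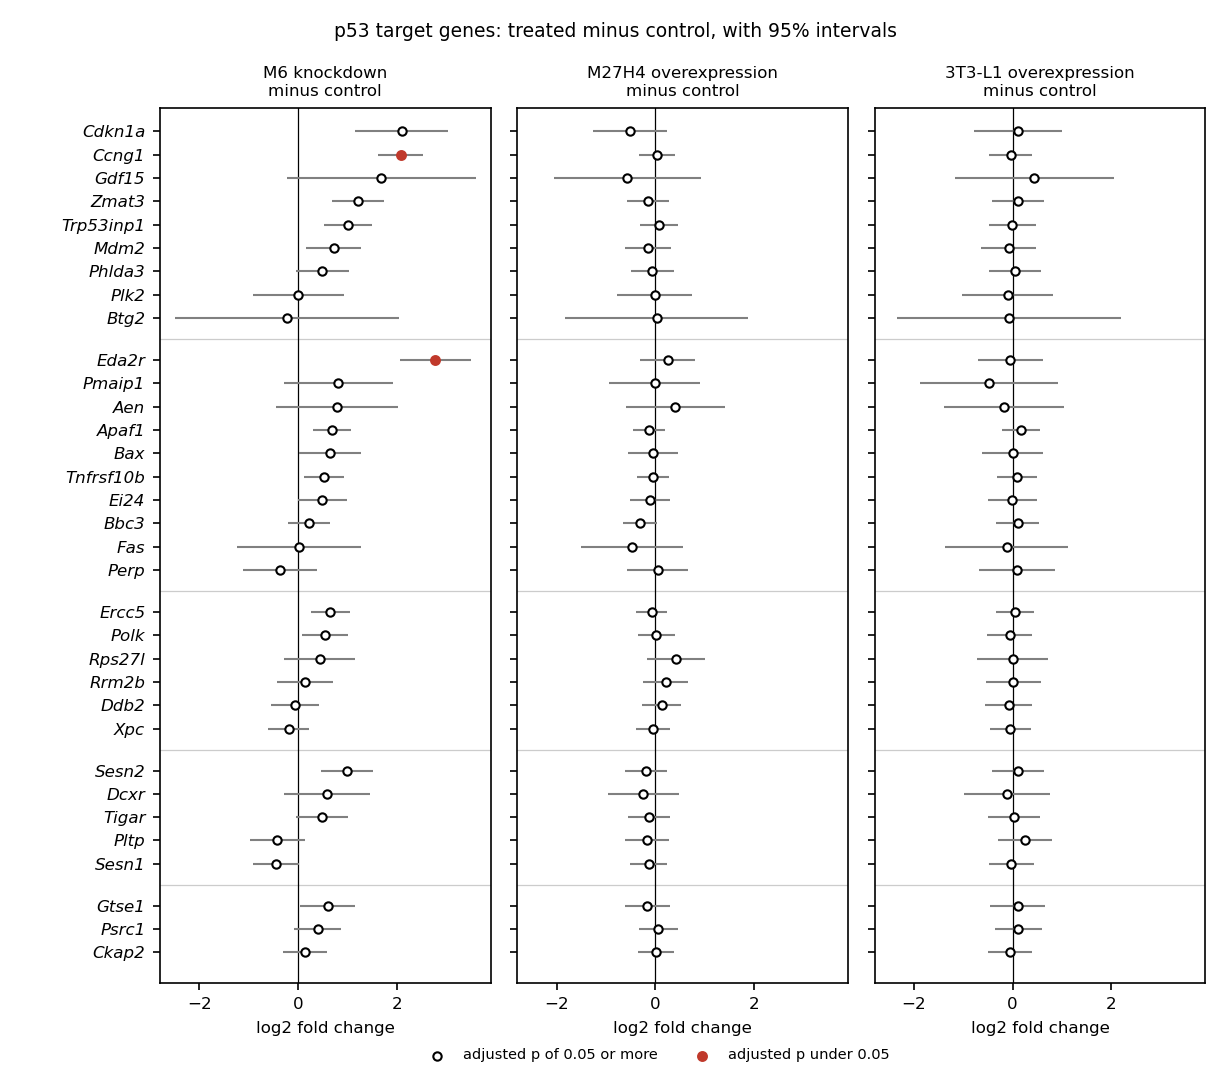
Log2 fold changes of the 33 members with 95% intervals in the 3 treatment comparisons, with filled points for an adjusted p under 0.05. The points lean to the right of 0 in M6, with Ccng1 and Eda2r filled, and lie close to 0 in the other 2 panels.

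The difference between treatments was tested directly. When the overexpression effect in M27H4 was subtracted from the knockdown effect in M6, Ccng1 was called (2.04 ± 0.27, edgeR adjusted p = 0.0167), where 0.0188% of all genes were called higher and 0.00942% lower. Eda2r (2.53 ± 0.41, edgeR adjusted p = 0.0905) and Cdkn1a (2.62 ± 0.56, edgeR adjusted p = 0.239) were not called, with estimates as large. With the replicate block 5 members were called higher, Ccng1 (adjusted p = 0.00739), Eda2r (adjusted p = 0.0182), Zmat3 (adjusted p = 0.0308), Trp53inp1 (adjusted p = 0.0350) and Sesn2 (adjusted p = 0.0441) by edgeR. At an unadjusted p under 0.05, 11 members were higher and none lower, against 2.54% of all genes higher and 2.17% lower. The Ccng1 call was lost without M6 knockdown replicate 1 (adjusted p = 0.0561), M6 control replicate 1 (adjusted p = 0.0735), or M27H4 overexpression replicate 2 (adjusted p = 0.0740) or 3 (adjusted p = 0.0671). Cell line, agent and direction of the Esrp2-as change all differ between these effects and cannot be told apart. No member differed between the overexpression effects in M27H4 and 3T3-L1, by edgeR at the adjusted or the unadjusted threshold, where 0.00471% of all genes were called and 0.772% were higher and 0.735% lower without adjustment.

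More members were called between the control groups of the lines than in any treatment comparison, and the same held for all genes. Of all genes tested, 15 to 20.5% were called in each direction between control groups, and at most 0.122% in a treatment comparison. The members took 0.774 to 0.857% of all counts in 3T3-L1 control, 0.167 to 0.197% in M6 control and 0.131 to 0.146% in M27H4 control. Most of the 3T3-L1 share was Mdm2, and without it the shares were 0.252 to 0.263%, 0.161 to 0.189% and 0.124 to 0.134%. Per exon length, the highest members were Mdm2, Rps27l, Ccng1 and Plk2 in 3T3-L1 control, Rps27l, Perp, Ckap2 and Ccng1 in M27H4 control, and Perp, Rps27l, Ckap2 and Plk2 in M6 control. Gdf15 was among the lowest 3 in every line, and Pmaip1 was the lowest in 3T3-L1.

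Against 3T3-L1 control, edgeR called 5 members higher and 16 lower in M6 control, where 18.9% of all genes were called higher and 20.5% lower, and the median log2 fold change was -0.85 against -0.05 for all genes. In M27H4 control 6 were higher and 18 lower, where 17.8% and 18.9% of all genes were, with a median of -0.97 against -0.02. The comparisons share the 3T3-L1 controls, and line, tissue of origin and transformation cannot be told apart in them. In arrest and feedback, 8 of 9 members were called lower in M6 and 8 of 9 in M27H4, the exception in both being Btg2. The repair group was mixed, with 2 higher and 1 lower of 6 in M6, and 1 higher and 1 lower in M27H4.

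**Figure D4:**
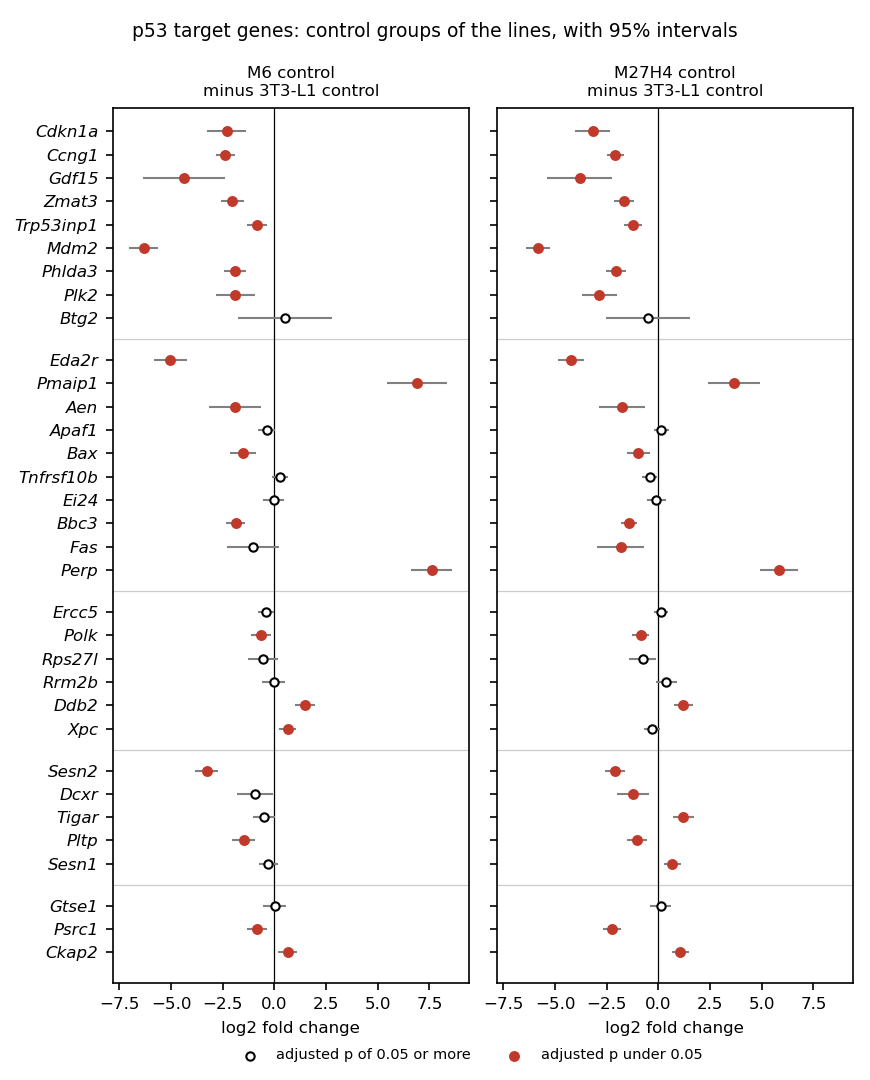
Log2 fold changes of the 33 members with 95% intervals for each tumour line's control group minus the 3T3-L1 control group, which both panels share, with filled points for an adjusted p under 0.05. Mdm2 and Eda2r lie farthest to the left, Perp and Pmaip1 farthest to the right, and the arrest group lies to the left of 0 except Btg2 in M6.

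Mdm2 was the member with the largest negative differences from 3T3-L1. It was at 5928 and 5107 CPM in 3T3-L1 control and 4612 and 5820.2 in overexpression, against 71.1 and 67.3 in M6 control and 69.1, 90.5 and 131 in M27H4 control. The difference was -6.32 ± 0.33 for M6 and -5.83 ± 0.27 for M27H4 (log2 fold change ± SE, edgeR adjusted p = 1.84e-08 and 1.10e-08). All 9 Mdm2 transcripts in the table were at 25.99 CPM or more in each 3T3-L1 replicate, and no tumour-line replicate had more than 66.6 CPM of any of them. By column code, control and treated tumour-line columns were read together. Under codes shared with 3T3-L1, Mdm2 was at 47.8 to 136 CPM in M6 and 78.3 to 126 in M27H4. Under unshared codes it was at 31.8 to 130 and 70.3 to 82.6. The M6 control columns alone held 47.8 and 92.0 CPM under shared codes and 77.0 and 31.8 under the unshared code. From unshared codes alone the log2 fold change kept its sign and was called in both lines.

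The genes around Mdm2 on chromosome 10 were then read, a set chosen after the values of Mdm2 were seen. Of 20 genes within 2.5 Mb that had a mean above 1 CPM, Mdm2 included, 1 other had a 3T3-L1 mean more than 4 times that of both tumour lines. It was Slc35e3, a solute carrier family gene whose near end lies 22.9 kb from Mdm2. Its mean was 826 CPM in 3T3-L1 control, 22.2 in M6 control and 31.2 in M27H4 control. Nup107, the next gene at 39.9 kb, was at 104, 90.1 and 119 CPM in the same order. Cpsf6, the nearest on the other side, was at 146, 208 and 157 CPM. The other 18 genes, these 2 among them, did not pass that ratio.

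**Figure D5:**
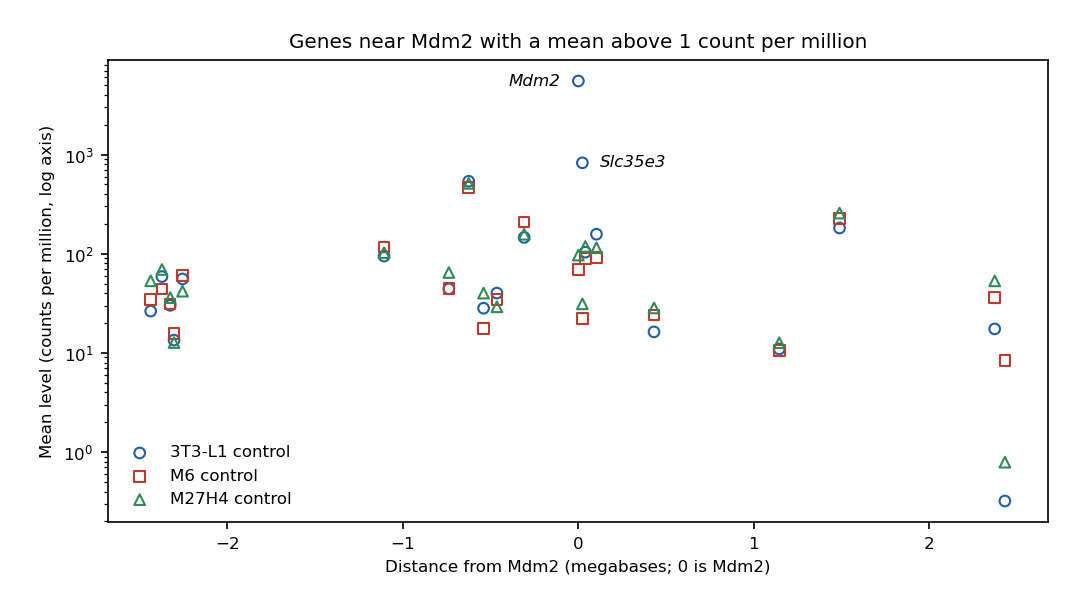
Mean levels in the 3 control groups, in CPM on a log axis, of the 20 genes within 2.5 megabases of Mdm2, placed by distance from it. Mdm2 and Slc35e3 stand far higher in 3T3-L1 control than in the other groups, and the symbols of the remaining genes lie close together apart from the low gene at the right edge, Irak3, which is higher in M6.

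Eda2r was the next most unequal of the genes that were lower, at 85.4 and 85.8 CPM in 3T3-L1 control against 2.36 and 2.84 in M6 control and 2.71, 6.60 and 4.27 in M27H4 control (-5.03 ± 0.37 and -4.23 ± 0.30, edgeR adjusted p = 2.57e-07 and 2.55e-07). Ccng1 was at 513 and 469 CPM against 85.8 and 103 and 89.7, 137 and 120.5 (-2.38 ± 0.21 and -2.08 ± 0.18, adjusted p = 1.57e-06 and 1.74e-06 by edgeR). Cdkn1a was at 16.7 and 25.3 CPM against 4.60 and 3.96 and 3.07, 1.84 and 2.06 (-2.30 ± 0.44 and -3.18 ± 0.39, edgeR adjusted p = 9.43e-04 and 2.94e-05). In none of the 3 did a tumour-line control reach a 3T3-L1 control. Over M27H4 control and overexpression columns together, Eda2r was at 2.76 to 5.76 CPM in unshared codes, against 4.11 to 7.27 under shared codes. In the same way Ccng1 was at 91.3 to 124 against 111 to 129, and Cdkn1a at 0.659 to 3.13 against 1.497 to 2.23. These are the same M6 controls to which the knockdown was compared, so the knockdown rise and the low baseline of these genes are not independent measurements.

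Sesn2 was at 99.1 and 95.02 CPM in 3T3-L1 control, 8.88 and 11.1 in M6 and 18.4, 30.8 and 19.1 in M27H4, with log2 fold changes of -3.28 and -2.09 (edgeR adjusted p = 5.47e-07 and 7.29e-06). Zmat3 was at 39.5 and 39.3 CPM, 11.4 and 7.85 and 14.5, 12.5 and 10.6 in the same order (-2.04 and -1.65, edgeR adjusted p = 2.76e-05 and 5.78e-05), and in M27H4 its call was lost when only codes not shared with 3T3-L1 were used (adjusted p = 0.0611). Phlda3 was at 146 and 157, 33.5 and 47.1 and 30.1, 41.9 and 36.9 CPM (-1.91 and -2.06, edgeR adjusted p = 5.23e-05 and 1.03e-05). These 3 were lower in every tumour-line control replicate. So was Bbc3, at 19.6 and 24.6, 6.05 and 5.99 and 8.17, 8.51 and 8.17 CPM (-1.88 and -1.42, edgeR adjusted p = 8.99e-06 and 3.70e-05). Under unshared codes in M27H4, control and overexpression columns were again read together. Sesn2 was at 18.5 to 18.8 CPM there, Zmat3 at 11.6 to 14.7, Phlda3 at 30.6 to 30.9 and Bbc3 at 6.36 to 8.32, all below every 3T3-L1 column.

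Among the further members called lower, Plk2 was at 569 and 469 CPM in 3T3-L1 control against 88.8, 79.4 and 47.7 in M27H4 (-2.85, edgeR adjusted p = 9.94e-05) and 205 and 76.1 in M6 (-1.89). Psrc1 was at 53.6 and 48.9 CPM against 11.5, 11.5 and 9.81 in M27H4 (-2.23, edgeR adjusted p = 2.03e-06), and Pltp at 41.8 and 74.2 against 20.2 and 21.2 in M6 (-1.48, edgeR adjusted p = 4.70e-04). Gdf15 was at 2.82 and 2.94 CPM in 3T3-L1 control and at most 0.351 in either tumour-line control. Aen was at 121 and 91.1 CPM, 25.2 and 30.9 in M6 and 8.19, 47.4 and 38.3 in M27H4, where replicate 1 was far below the others. Bax was at 85.3 and 86.5 CPM against 23.95 and 36.5 and 39.1, 44.4 and 47.7, and Trp53inp1 at 89.9 and 99.2 against 58.3 and 46.7 and 46.5, 33.3 and 41.5. Polk was called lower in both, with log2 fold changes of -0.64 in M6 and -0.85 in M27H4. Fas and Dcxr were called lower in M27H4 (-1.83 and -1.23) and not in M6 (-1.04 and -0.95). Fas was at 22.6, 4.23 and 8.80 CPM in M27H4 control, where replicate 1 was far above the others, against 39.7 and 44.1 in 3T3-L1 control.

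The members called higher in the tumour lines were led by 2 cell death genes. Perp was at 499.5 and 555 CPM in M6 control and 83.7, 186 and 199 in M27H4 control, against 2.36 and 3.06 in 3T3-L1 control (7.60 ± 0.47 and 5.85 ± 0.42, edgeR adjusted p = 5.91e-08 and 3.08e-07). Perp belongs to the desmosome, and in M27H4 control the summed epithelial markers were at 164 to 290 CPM. In M27H4 Perp was at 85.2 to 116 CPM under unshared codes and 174 to 191 under codes shared with 3T3-L1, with no overlap. The unshared columns were replicate 1 of control and of overexpression, so code and replicate cannot be told apart there. From unshared codes alone the M27H4 log2 fold change of Perp was 4.94. In M6 control replicate 2, Perp was at 528 CPM under the unshared code and 519 and 518 under shared codes. Every 3T3-L1 column shared its code with an M6 column, and in those M6 columns Perp reached 519 CPM and the part of this in the low 3T3-L1 value was not tested. Pmaip1 was at 19.2 and 12.8 CPM in M6 control, 1.58, 1.87 and 1.61 in M27H4 control and 0.0501 and 0.234 in 3T3-L1 control (6.89 ± 0.68 and 3.65 ± 0.58, edgeR adjusted p = 3.51e-06 and 2.68e-04). In M27H4 control and overexpression columns together, Pmaip1 was at 1.60 to 1.81 CPM under unshared codes and 1.11 to 2.35 under shared ones. Its M27H4 log2 fold change was 2.84 without 3T3-L1 control replicate 1 and 5.03 without replicate 2. For both genes the control replicates of the 3 lines did not overlap.

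Smaller positive differences were found in repair, metabolic and mitotic members. Ddb2 was at 18.5 and 28.02 CPM in M6 control and 18.3, 20.2 and 19.3 in M27H4 control against 7.76 and 8.97 in 3T3-L1 (1.48 ± 0.23 and 1.20 ± 0.21, edgeR adjusted p = 1.81e-04 and 5.81e-04). Ckap2 was higher by 0.65 in M6 and 1.06 in M27H4, and Xpc by 0.64 in M6 alone by this test. Tigar (1.21) and Sesn1 (0.68) were called higher in M27H4 and not in M6 (-0.50 and -0.30). Apaf1, Ei24, Tnfrsf10b, Ercc5, Rps27l, Rrm2b, Gtse1 and Btg2 were called in neither line, with log2 fold changes between -0.55 and 0.51 in M6 and between -0.76 and 0.39 in M27H4.

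The p53 gene and the pathway lists were compared in the same way. Trp53 was at 54.2 and 40.03 CPM in 3T3-L1 control, 28.5 and 34.02 in M6 and 34.4, 31.8 and 23.9 in M27H4, and was called lower in M27H4 (-0.65, edgeR adjusted p = 0.0266) and not in M6 (-0.59, edgeR adjusted p = 0.0597). Of the 21 regulators tested, 7 were called higher and 2 lower in M6, where 18.9% of all genes were called higher and 20.5% lower, and 5 higher and 2 lower in M27H4, where 17.8% and 18.9% were. Of the 32 further p53 targets, 7 were higher and 13 lower in M6, and 6 higher and 12 lower in M27H4. Of the 16 DREAM-linked cell cycle genes, 12 were called higher in M6 and 14 in M27H4 and none lower, with medians of 0.98 and 1.05, against the same shares of all genes. No test compared the lists with each other.

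The tumour lines differed from each other in 10 members, 5 higher and 5 lower in M27H4 control than in M6 control by edgeR. Members were thus called about as often as genes at large, of which 15.2% were called higher and 15.0% lower. The median was 0.10, and no arrest gene was called. Tigar was at 18.8, 19 and 19.7 CPM in M27H4 control and 5.53 and 6.19 in M6 control (1.71 ± 0.24, edgeR adjusted p = 9.42e-05), and Sesn2 at 18.4, 30.8 and 19.1 against 8.88 and 11.1 (1.19 ± 0.23, edgeR adjusted p = 0.0013). Sesn1 (0.98), Apaf1 (0.52) and Ercc5 (0.52) were also higher in M27H4. Pmaip1 (-3.25 ± 0.48, edgeR adjusted p = 1.52e-04), Perp (-1.76 ± 0.32, edgeR adjusted p = 7.65e-04) and Psrc1 (-1.37 ± 0.20, edgeR adjusted p = 1.36e-04) were lower, as were Xpc (-0.94) and Tnfrsf10b (-0.69). Cdkn1a, at 3.07, 1.84 and 2.06 CPM in M27H4 against 4.60 and 3.96 in M6, did not pass the adjusted threshold (edgeR adjusted p = 0.102).

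Some members overlap other genes, and where the strand setting of the counting is not given in the sources used here their reads cannot be told apart from those of the partner. Bax overlaps Gm45808 on its own strand. On the other strand Cdkn1a overlaps AC167363.2, Ei24 overlaps Gm26787, Ddb2 overlaps Acp2, Rrm2b overlaps Gm49085, Tigar overlaps Platr31 and Pltp overlaps Ctsa. The library kit preserves strand, per the labels.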

How the data were processed

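The authors deposited estimated counts per gene and per transcript, whole numbers not scaled for depth, and the submitters' processing notes name cutadapt, HISAT2, StringTie and edgeR and the builds mm10 and GRCm38. Versions, annotation release and counting strand are not given in the sources used here. The deposited CPM tables were not used, and 1 of their columns belonged to no sample described here. Technical replicates were summed by the labels. Names and coordinates came from GENCODE M21 (GRCm38), which held 48058 of the 48440 gene rows, and promoter windows from RefSeq (GRCm38.p6).

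edgeR 4.0.16 (R 4.3.3) was fitted once over all 6 groups with filterByExpr, TMM scaling, robust quasi-likelihood dispersion and 8 residual degrees of freedom. Its procedure was run on simulated counts, with changes placed only in genes of high counts and no effect of code or replicate number. That run does not give the error rates of the calls reported here. p-values were adjusted by Benjamini-Hochberg over 21237 genes, and a call is an adjusted p under 0.05. The SE is the log2 fold change divided by the square root of F. DESeq2 1.42.0 and limma 3.58.1 were alternatives. The members, roles and pathway lists were chosen with earlier results of these data known. All members are named. Full values go to treatment-comparison members with an unadjusted p under 0.05, and to at most 12 per control comparison that were called with at least 1 log2 unit, by p. Of the pathway lists, called members are named, or the 2 with the smallest p.

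Replicate numbers came from the titles. Same-numbered M27H4 samples deviated together from their group means across genes (correlations 0.353, 0.249 and 0.240). Differently numbered M27H4 samples correlated at -0.292 to 0.142. Same-numbered samples were taken as pairs only in the replicate block, an alternative fit. The main fit, with groups only, did not use the pairing. M6 and 3T3-L1, with 2 pairs each, are too few for this check. Same-numbered samples also share column codes, wholly in M27H4 and 3T3-L1 and in part in M6, so number and code cannot be told apart in the M27H4 correlations. The labels do not say what a code is. Between replicates of 1 group the variance was 20.4 to 71.7 times the counting variance, so none was a repeat deposit.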

Additional observations from a re-analysis of the deposited data

How the results depend on the processing

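No member called in a comparison changed sign there under any alternative run for it. The 3 overexpression counts of 0, for M27H4, 3T3-L1 and their difference, stayed at 0 under every one. For the M6 knockdown, the 2 members called became 4 with no filter on low counts, 7 with DESeq2, 3 with limma voom, 0 with only the groups compared in the fit and 6 with a replicate block, and 1 to 2 when a replicate was left out. For the knockdown effect in M6 minus the overexpression effect in M27H4, 1 member called became 2 with no filter, 4 with DESeq2, 0 with only the groups compared and 5 with the replicate block, and 0 to 2 when a replicate was left out. With the replicate block, no member was called for overexpression in M27H4 or 3T3-L1. Same-numbered samples share column codes as well as a number, in M6 only in part, so the block holds both. The cause of these changes was not tested. All genes called after the knockdown numbered 29, against 64 with no filter, 235 with DESeq2, 74 with limma voom, 293 with the replicate block, 0 with only its groups and 6 to 60 when a replicate was left out. Over all alternatives the genes called in the table ranged from 0 to 6 for M27H4 overexpression, 0 to 12 for 3T3-L1 overexpression, 0 to 10 for the difference between those and 0 to 112 for knockdown minus M27H4 overexpression. Same-numbered samples in M6 and 3T3-L1 correlated at 0.334 and 0.245, and differently numbered ones at -0.334 and -0.245. With 2 replicates per group these are mirror values, 1 per line, and cannot check the pairing. All genes called in M27H4 control against 3T3-L1 control fell from 7777 to 5135 when only codes unshared with 3T3-L1 were used, an alternative added after seeing the data, which left M27H4 with 1 control replicate that was assumed to vary like the other groups. The member counts there were 24 and 18, and for M6 21 and 20. With codes shared by both lines as the replicate block, 28 members were called. The median of M27H4 control against M6 control, 0.10, was -0.06 with limma voom and between -0.05 and 0.15 when a replicate was left out. Gdf15 in the tumour lines and Pmaip1 in 3T3-L1 were below 1 CPM, where depth limits the values.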
